A study of Mus musculus with 12 samples.

Results

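Macroautophagy is the process by which a cell encloses part of its own cytoplasm in a double membrane, the autophagosome, and delivers it to the lysosome. The 10 genes described here encode core parts of that machinery: the starting kinase Ulk1, the lipid kinase subunit Becn1, the phosphoinositide-binding protein Wipi1, the conjugation proteins Atg5 and Atg7, and the ubiquitin-like ATG8 proteins of the LC3 branch (Map1lc3a, Map1lc3b) and the GABARAP branch (Gabarap, Gabarapl1, Gabarapl2). They were taken by gene name from the arrays' own annotation. They make up 10 of 34797 gene names on the array and have 15 of its 55681 probes, and 9 of the 10 were among the 17595 genes bright enough to test.

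RAW264.7 cells, a mouse macrophage-like line cultured with 10% serum, were kept for 24 h in medium with 0.5% fatty acid-free bovine serum albumin. All 4 groups shared the serum and the albumin. The control group, PA(-) FABP4(-), received no FABP4 and no palmitic acid. The FABP4 group received 200 nM recombinant FABP4, a lipid carrier also called A-FABP or aP2, the palmitic acid group received 0.2 mM palmitic acid, a saturated fatty acid, and the combined group received both. Each group has 3 one-colour arrays, 12 in all, and nothing in the labels says that the replicates came from separate cultures, so p-values measure the spread between these arrays, which may be technical. The line grows as a continuous culture and stands for primary macrophages only in part.

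In macrophages, autophagy removes damaged organelles and lipid stores, and some of the same proteins attach LC3 to phagosomes in LC3-associated phagocytosis. Ulk1 and its partners start the process, the Becn1 complex marks the membrane with a phosphoinositide that Wipi proteins bind, and Atg7 activates both Atg12, which is joined to Atg5, and the ATG8 proteins, which are attached to the lipid of the growing membrane. Much of this control acts on protein modification, and an array reads messenger RNA only, so autophagic flux was not measured.

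The 12 arrays had 42.8% to 46.7% of their non-control spots well above background, and no non-control spot was saturated. A level is the log2 of the processed signal minus the log2 of that array's 75th percentile, and differences are between group means of levels in limma, with ± standard error (SE). A gene is said to be called where its p, adjusted by Benjamini-Hochberg over all 17595 tested genes, was under 0.05. The 3 controls and FABP4 array 1 lie on slide 1, and the other 8 arrays on slide 2, so no slide holds both controls and palmitic acid arrays. A fit with slide as a fixed block links those groups only through the FABP4 arrays, of which array 1 alone is on slide 1. Of 10 macrophage markers 9 were well above background on all 12 arrays, with summed signals of 240000 to 244000 in controls, while Mertk was on none. In these bulk samples, a change in the share of cells and a change in RNA per cell cannot be told apart.

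The probes behind the results that turn on a single probe are shown first, 5′ to 3′ in lower case, as the deposited files give them, with mm9 positions. For Atg5 and for the outer Gabarap probes the first 30 of 60 bases are given, and the middle Gabarap probe, the Becn1 probe and the brightest Wipi1 probe are given whole. Exon and UTR positions were not analysed here.
Atg5 A_55_P2015113, chr10:44083997-44084056, plus strand: cttgctgtccacattgaatgtcaacccatc
Gabarap A_55_P2000718, chr11:69804812-69804871, plus strand: taatttccgagaactgcagaactaaatctc
Gabarap A_51_P295312, chr11:69806095-69806154, plus strand: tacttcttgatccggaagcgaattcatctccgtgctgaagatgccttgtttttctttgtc
Gabarap A_55_P2010223, chr11:69808343-69808402, plus strand: aatcccttcctttcactatcttctttttgg
Becn1 A_51_P489337, chr11:101151771-101152713, minus strand: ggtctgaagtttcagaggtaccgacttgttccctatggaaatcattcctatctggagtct
Wipi1 A_55_P1968808, chr11:109443686-109443745, minus strand: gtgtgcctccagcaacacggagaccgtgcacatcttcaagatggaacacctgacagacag
The array assigns 3 probes to Gabarap, at the positions shown, the upstream one through an Ensembl transcript and the other two through the RefSeq transcript. The whole upstream probe matches the promoter of Gabarap in RefSeq (GRCm38.p6), on the same strand, at bases 60 to 1 before the start, and 0 of its bases lie after the start. It therefore reads no base of the transcript that begins at that start, and which RNA it reads was not tested. Of the 15 probes it was the only 1 found whole in any of the 8 promoter windows searched, which end 50 bases after the start. The Becn1 probe has 60 bases but spans 943 bases of the genome, so it crosses at least 1 splice junction and reads spliced RNA.

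In the fit without a slide block, palmitic acid without FABP4 left most of the core genes within a narrow band around the control. Of the 9 tested genes 1 was called, Atg5, which was lower, against a background of 8.61% of all tested genes called in either direction, 4.88% higher and 3.73% lower. At an unadjusted p under 0.05 Atg5 was again the only 1, beside 26.5% of all genes, and it was the only 1 of the 9 whose groups did not overlap, beside 33.9%. The 9 differences ran from -0.21 to 0.09 with a median of -0.02, beside a median of 5e-04 over all genes. The 95% intervals of the 9 genes together spanned -0.41 to 0.25, or 0.753-fold to 1.19-fold. Over the alternatives run, which include slide blocks and other scalings, Gabarap differed by -0.129 to 0.2636 and Map1lc3b by 0.044 to 0.2865.

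Atg5 is the protein to which Atg12 is joined, and the pair, with Atg16l1, directs LC3 to the membrane. Its levels were 1.84, 1.89 and 1.92 in the controls and 1.69, 1.64 and 1.70 with palmitic acid. They were 1.96, 1.82 and 1.82 with FABP4, and 1.81, 1.78 and 1.78 with both. All palmitic acid arrays were below all control arrays, and the arrays with both agents lay between these groups without overlapping either. The Atg5 level with palmitic acid differed by -0.21 ± 0.05 on the log2 scale (0.865-fold, 95% interval -0.32 to -0.1, adjusted p = 0.0314 by limma).

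The Atg5 call depended on the arrays and on a slide block, which links these groups only through the FABP4 arrays. The call ended when any 1 of the 3 control arrays was left out (adjusted p = 0.0644, 0.0738 and 0.109 for arrays 1 to 3) or any 1 of the 3 palmitic acid arrays (0.0655, 0.103 and 0.0626), with differences of -0.23 to -0.19. It also ended without the combined array 2 (adjusted p = 0.0513). A fit with slide as a fixed block gave -0.0653 ± 0.0699 (adjusted p = 0.724), and within slide 2 palmitic acid minus FABP4 arrays 2 and 3 gave -0.15. With no scaling between arrays it was -0.0355, while the median of all genes then stood at 0.174. On unscaled signals the groups overlapped, at 926 to 995 in the controls and 829 to 1020 with palmitic acid.

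With FABP4 present, palmitic acid gave an Atg5 difference of -0.08 ± 0.05 (adjusted p = 0.373 by limma). All arrays with both agents lay below all FABP4 arrays, of which array 1, on slide 1, was the highest at 1.96. Within slide 2 the difference was -0.03, with levels of 1.82 and 1.82 with FABP4 and 1.78 to 1.81 with both. The difference between both responses, the interaction, was 0.13 ± 0.07 (95% interval -0.03 to 0.28, adjusted p = 0.719), so a larger fall without FABP4 was not shown. Over the 12 arrays the tested genes outside the group whose levels ran most like that of Atg5 were Ppa2, Nop56 and Acss2, with Pearson correlations of 0.973, 0.972 and 0.97. That is a description over arrays which share their groups and slides.

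**Figure D1:**
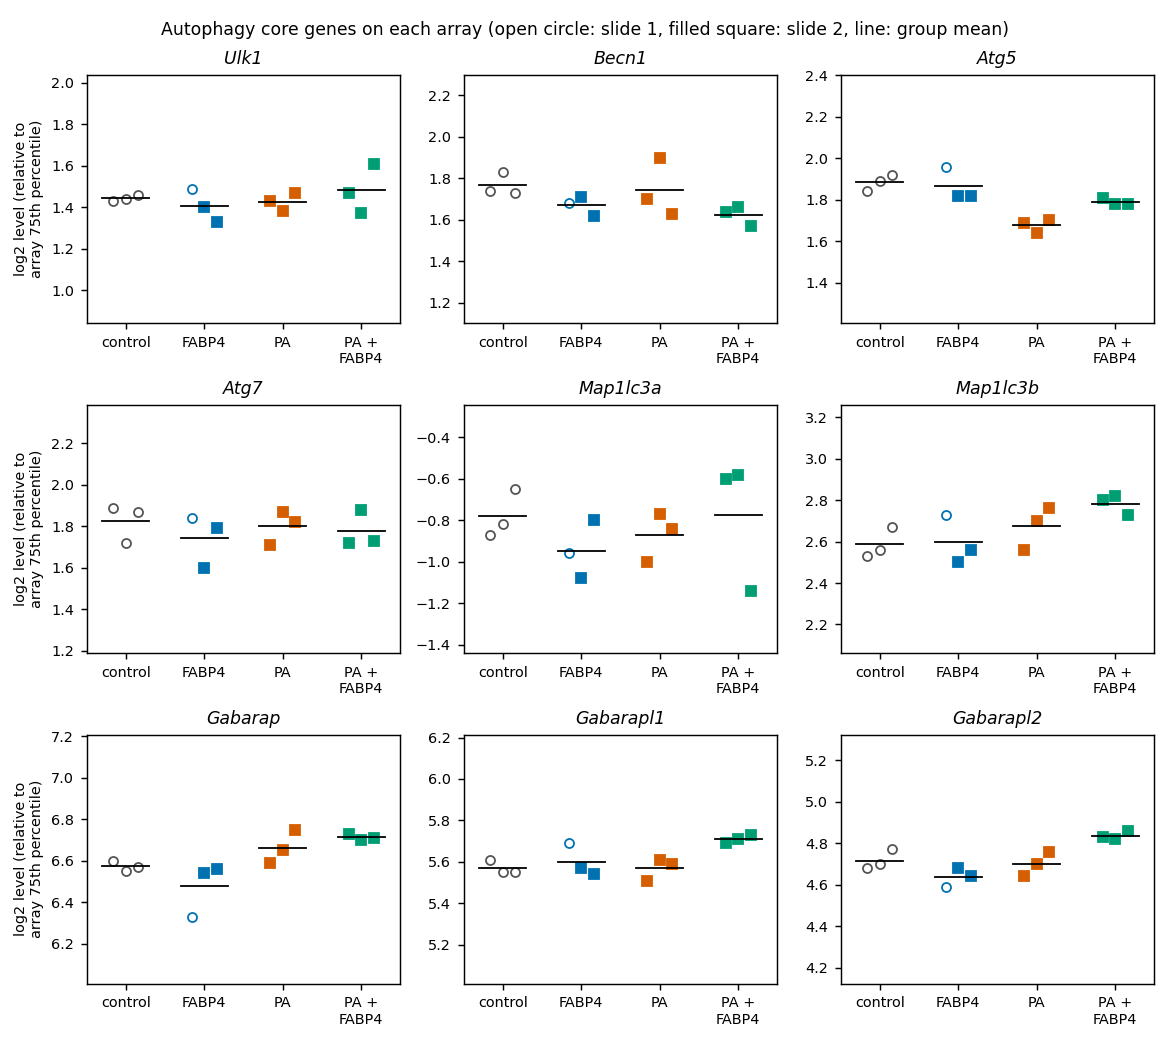
Level of each tested autophagy core gene on every array, as log2 of the processed signal relative to the array's 75th percentile, by group; points are arrays, lines are group means, and every vertical axis spans the same log2 width. Atg5 lies at 1.64 to 1.70 with palmitic acid (PA) and at 1.84 to 1.92 in the controls, while Gabarapl2 lies at 4.82 to 4.86 with both agents.

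Atg7, the activating enzyme for both conjugation systems, was read by 2 probes. On the brighter one its levels were 1.89, 1.72 and 1.87 in controls, 1.84, 1.60 and 1.79 with FABP4, 1.71, 1.87 and 1.82 with palmitic acid, and 1.72, 1.88 and 1.73 with both. The 4 groups overlapped. Palmitic acid gave -0.02 ± 0.08 without FABP4 and 0.03 ± 0.08 with it, and the dimmer probe gave -0.15 ± 0.13 and 0 ± 0.13.

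Ulk1, the kinase that starts autophagosome formation, was the tightest of the 9 genes in the controls, at 1.43, 1.44 and 1.46. Its levels were 1.49, 1.40 and 1.33 with FABP4, 1.43, 1.38 and 1.47 with palmitic acid, and 1.47, 1.37 and 1.61 with both. Its differences ran from -0.04 with FABP4 alone to 0.08 with palmitic acid on top of FABP4, each ± 0.07, and none passed.

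Becn1 is a subunit of the complex that makes phosphatidylinositol 3-phosphate on the forming membrane. Its levels were 1.74, 1.83 and 1.73 in controls, 1.68, 1.71 and 1.62 with FABP4, 1.70, 1.90 and 1.63 with palmitic acid, and 1.64, 1.66 and 1.57 with both. The combined arrays all lay below the controls, with a difference of -0.14 ± 0.07 (adjusted p = 0.233 by limma). One palmitic acid array, array 2, was the highest of the 12.

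When palmitic acid was added on top of FABP4, 0 of the 9 core genes were called in limma, against a background of 3.81% of all genes (2.86% higher and 0.943% lower). At an unadjusted p under 0.05 there were 3, all higher (Gabarapl2, Gabarap and Map1lc3b, 3 of the 5 ATG8 genes), beside 20.9% of all genes in either direction and 15.2% higher. The groups did not overlap for these 3 and for Atg5, or 4 of 9, beside 26.3% of all genes. The 9 differences ran from -0.08 to 0.24 with a median of 0.11, against 0.0503 over all genes. Gabarapl2, Gabarap and Map1lc3b stayed above 0 under the 3 other scalings run, at 0.15 each with quantile normalization and 0.10, 0.14 and 0.09 with no scaling.

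Gabarapl2, also known as GATE-16, had levels of 4.68, 4.70 and 4.77 in controls and 4.59, 4.68 and 4.64 with FABP4. It had 4.64, 4.70 and 4.76 with palmitic acid and 4.83, 4.82 and 4.86 with both. The 3 arrays with both agents were the 3 highest of the 12. Palmitic acid with FABP4 gave 0.20 ± 0.05 (1.15-fold, 95% interval 0.09 to 0.31, adjusted p = 0.0541 by limma), and -0.02 ± 0.05 without FABP4. The interaction was 0.21 ± 0.07 (unadjusted p = 0.0109, adjusted p = 0.647 by limma), so the difference between both responses did not pass. A slide block moved the value with FABP4 to 0.17 ± 0.05 (adjusted p = 0.108).

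Gabarap, for which its branch is named, had levels of 6.60, 6.55 and 6.57 in controls on its brightest probe. They were 6.33, 6.54 and 6.56 with FABP4, 6.59, 6.65 and 6.75 with palmitic acid, and 6.73, 6.70 and 6.71 with both. All arrays with both agents were above all FABP4 arrays, of which array 1, on slide 1, was the lowest. The difference was 0.24 ± 0.07 (1.18-fold, adjusted p = 0.0835 by limma), and 0.16 ± 0.05 with the slide as a fixed block (adjusted p = 0.135). Without FABP4 it was 0.09 ± 0.07, with overlapping groups.

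Gabarapl1 had 5.61, 5.55 and 5.55 in controls, 5.69, 5.57 and 5.54 with FABP4, 5.51, 5.61 and 5.59 with palmitic acid, and 5.69, 5.71 and 5.73 with both. The arrays with both agents stood above the controls and the palmitic acid arrays but overlapped narrowly with the highest FABP4 array. Palmitic acid gave 0 ± 0.05 without FABP4 and 0.11 ± 0.05 with it (adjusted p = 0.25 by limma).

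Map1lc3b encodes LC3B, the ATG8 protein most used as a marker of autophagosomes, and its probe was spotted 10 times on each array. Spots of one array had a standard deviation (SD) of 0.036 to 0.092 on the log2 scale, so the mean of an array's 10 spots had an SE of at most 0.029. Levels were 2.53, 2.56 and 2.67 in controls, 2.73, 2.50 and 2.56 with FABP4, 2.56, 2.70 and 2.76 with palmitic acid, and 2.80, 2.82 and 2.73 with both. The combined arrays were above all controls, and array 3 equalled the highest FABP4 array to the second decimal. Palmitic acid with FABP4 gave 0.19 ± 0.07 (adjusted p = 0.189 by limma), 0.26 ± 0.07 with the slide as a fixed block (adjusted p = 0.0869), and without FABP4 it gave 0.09 ± 0.07.

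Map1lc3a, which encodes LC3A, was dim, with signals of 125 to 177 over all 12 arrays. Its levels were -0.87, -0.82 and -0.65 in controls, -0.96, -1.08 and -0.80 with FABP4, and -1, -0.77 and -0.84 with palmitic acid. With both agents they were -0.60, -0.58 and -1.14, so this group held the highest and the lowest array of the gene. It set the lower limit of the span given for palmitic acid without FABP4, which was -0.32 to 0.25 over the 8 other genes. With FABP4 the span was -0.2 to 0.5 over all 9 and -0.2 to 0.38 without it.

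**Figure D2:**
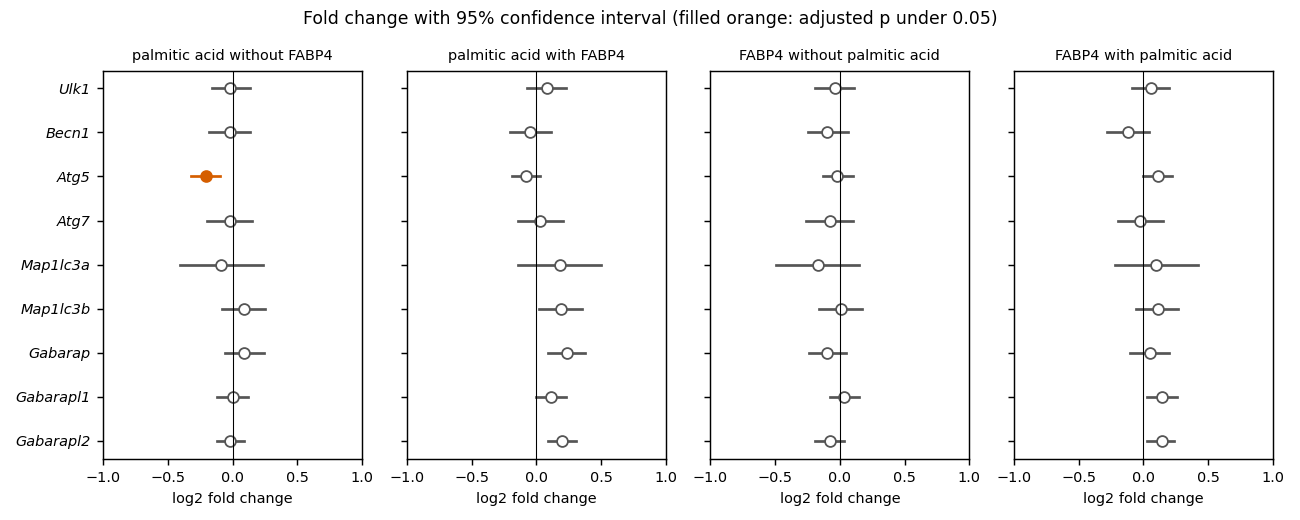
Log2 fold change of each tested core gene with its 95% confidence interval in 4 comparisons; filled orange marks an adjusted p under 0.05. Only Atg5 without FABP4 is filled, at -0.21, and Gabarap and Gabarapl2 have the highest values with FABP4, at 0.24 and 0.20.

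The probes assigned to Gabarap did not give 1 answer. The upstream probe, A_55_P2000718, which lies before the RefSeq start, rose with palmitic acid without FABP4, whereas the middle and downstream probes did not pass. Its levels were -1.93, -1.93 and -1.94 in controls, -1.80, -1.82 and -1.84 with FABP4, -1.51, -1.53 and -1.50 with palmitic acid, and -1.80, -1.62 and -1.83 with both. All palmitic acid arrays were above every other array. In the fit over all 23909 tested probes the rise was 0.42 ± 0.06 (1.34-fold, 95% interval 0.29 to 0.55, adjusted p = 0.00434 by limma), where 7.41% of probes were called in either direction and 4.09% higher. Its signals were 65.7 to 68.4 in controls and 90.2 to 111 with palmitic acid.

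With FABP4 present the same probe gave 0.07 ± 0.06. FABP4 on top of palmitic acid gave -0.24 ± 0.06, with all arrays lower (adjusted p = 0.838 by limma), and the interaction was -0.35 ± 0.08 (adjusted p = 0.547), so no effect of FABP4 on it passed. The rise was 0.45 ± 0.10 with the slide as a fixed block (adjusted p = 0.109) and 0.43 ± 0.08 with it as a random block (adjusted p = 0.0383). The middle probe gave 0.12 ± 0.06 without FABP4 (adjusted p = 0.259) and 0.22 ± 0.06 with it (adjusted p = 0.0962), close to the downstream probe's 0.09 and 0.24. On the middle probe all palmitic acid arrays were above all controls, and with the slide as a fixed block it gave -0.05 ± 0.09 without FABP4. The difference between probes was not tested.

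**Figure D3:**
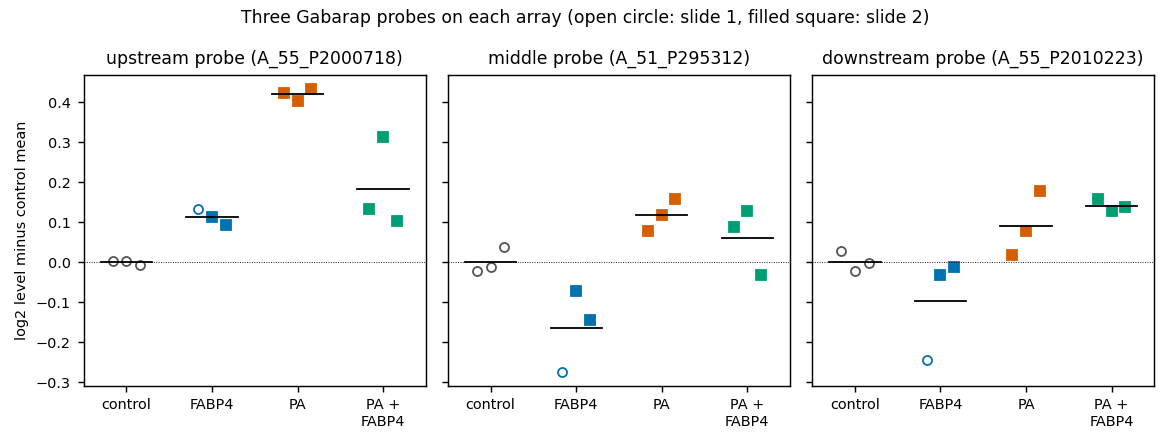
Level of each Gabarap probe on every array as the log2 difference from the mean of the controls, by group; points are arrays, lines are group means, and the dotted line is the control mean. The upstream probe, which lies before the RefSeq start of the gene, is higher on the 3 palmitic acid (PA) arrays, by 0.42 on average, while the same arrays average 0.12 and 0.09 on the middle and downstream probes.

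FABP4 alone moved no core gene past the test. Without palmitic acid 0 of 9 were called and 0 had an unadjusted p under 0.05 in limma, against 0.0171% and 7.24% of all genes, and the differences ran from -0.17 (Map1lc3a) to 0.03 (Gabarapl1). The groups did not overlap for 1 of 9, Becn1, which had -0.1 ± 0.07, beside 10.4% of all genes. The 95% intervals together spanned -0.49 to 0.17, and -0.26 to 0.17 without the dim Map1lc3a. These values are of the probes that stand for the genes. The middle Gabarap probe gave -0.16 ± 0.06, with all arrays lower (unadjusted p = 0.0268, adjusted p = 0.631 by limma). The upstream one gave 0.12 ± 0.06, with all arrays higher (adjusted p = 0.722).

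FABP4 on top of palmitic acid was compared wholly within slide 2. Here 0 of 9 were called in limma, against 0% of all genes, and 3 had an unadjusted p under 0.05, all higher, against 5.88% in either direction and 4.65% higher. These were Gabarapl1 (0.14 ± 0.05, 1.11-fold), Gabarapl2 (0.14 ± 0.05, 1.1-fold) and Atg5 (0.11 ± 0.05, 1.08-fold), each with an adjusted p of 0.806 by limma. For each of the 3 every array with both agents was above every palmitic acid array, and groups without overlap in either direction were found for 14.5% of all genes. The median over the 9 was 0.1, beside 0.0346 over all genes. The scaling bore on these values: with no scaling between arrays Gabarapl1 had 0.01, Gabarapl2 0.01 and Atg5 -0.02, and with quantile normalization 0.09, 0.08 and 0.09.

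Both agents against the control gave 0 calls among the 9 in limma, against 7.52% of all genes. Map1lc3b (0.19 ± 0.07), Gabarapl1 (0.14 ± 0.05) and Gabarapl2 (0.12 ± 0.05) had an unadjusted p under 0.05, beside 25.1% of all genes, and adjusted p-values of 0.14, 0.122 and 0.162 in limma. The groups did not overlap for 6 of 9, 4 higher and 2 lower, beside 37.4% of all genes. The interaction gave 0 calls among the 9, against 0% of all genes, and 1 unadjusted p under 0.05, beside 6.92%.

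Across the 12 arrays the levels of some pairs of ATG8 genes ran together, as a description over arrays that share groups and slides. The highest Pearson correlations were 0.8 for Gabarap and Gabarapl2 and 0.73 for Gabarapl1 and Map1lc3b. Other ATG8 pairs were low, with Gabarap and Gabarapl1 at 0.21 and Gabarapl1 and Map1lc3a at 0.06. Outside the ATG8 pairs, Atg7 and Map1lc3a had 0.51, and Gabarap and Atg5 -0.67. No background over all gene pairs is given. Over the 8 arrays of slide 2 Gabarap with Atg5 was -0.21. Gabarapl1 with Gabarapl2 went from 0.53 to 0.96, Gabarap with Gabarapl1 to 0.69 and Gabarapl1 with Map1lc3a to 0.26.

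Wipi1, which binds phosphatidylinositol 3-phosphate on the growing membrane, could not be tested, because none of its 3 probes reached the detection filter in any group, which asks for a signal well above background on every array of the group. The probe shown above, A_55_P1968808, had signals of 24.4, 19.9 and 23 in controls, 27.9, 26.3 and 14 with FABP4, and 31.6, 23.4 and 14.1 with palmitic acid. With both agents it had 23.3, 75.5 and 115, and arrays 2 and 3 of that group were well above background, as was FABP4 array 1. The 2 high arrays stood apart from the third of their own group as well as from all others.

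A bound was set on that probe from the mean of the bright group and, in the dim group, the lowest signal of any probe well above background on each array or the probe's own where higher. For the mean of the group with both agents the bound was 2.36-fold over controls and 2.26-fold over palmitic acid alone. Only 2 of its 3 arrays were above background. The bound leaves out the spread within that group (SD 1.1 on the log2 scale), whose array 1, at 23.3, lay within the control range of 19.9 to 24.4. With no filter on dim probes, both agents against control gave 1.35 ± 0.5 on the log2 scale (adjusted p = 0.283 by limma). A rise of the whole group was therefore not shown. The second probe, A_52_P497534, had 35.2, 29 and 32.3 with both agents and 17, 19.5 and 18.8 in controls. Its bounds on the means were 1.34-fold over controls and 1.13-fold over palmitic acid alone. The palmitic acid arrays, at 17.1 to 34.8, overlapped those with both agents. The remaining probe, A_51_P158044, stayed near background throughout, and 0 of the 12 arrays marked it as well above it.

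**Figure D4:**
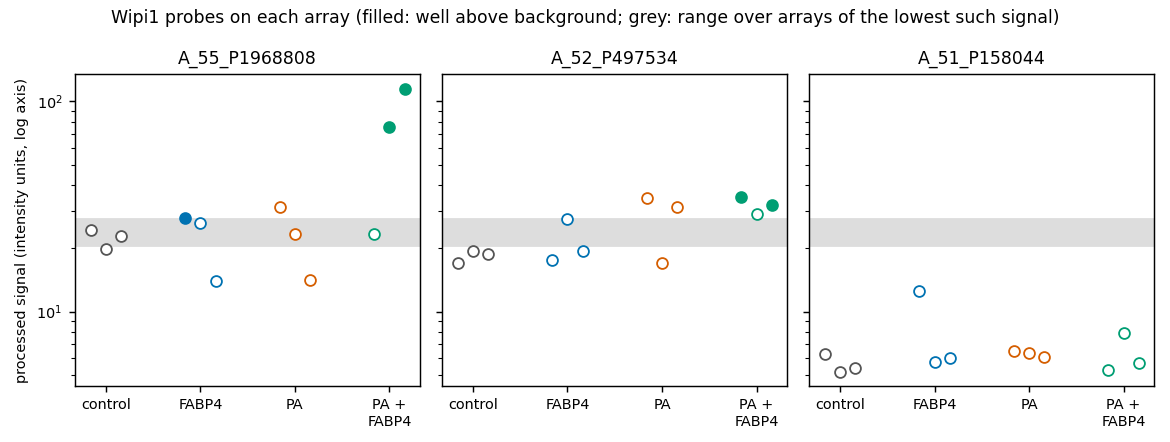
Processed signal of the Wipi1 probes on every array, on a log axis, by group; filled points are well above background, and the grey band is the range over arrays, 20.4 to 27.5, of the lowest signal that was. On the leftmost probe 2 arrays with both agents reach 75.5 and 115, while the third reads 23.3.

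The rest of the autophagy machinery was read from 84 further genes in 8 lists by role, of which 75 were tested. Palmitic acid raised 8 of the 75 and lowered 1 without FABP4, beside 4.88% and 3.73% of all genes. With FABP4 it raised 8 and lowered 0, beside 2.86% and 0.943%. The medians of the 75 were 0.01 and 0.06, beside 5e-04 and 0.0503 over all genes. FABP4 moved 0 of 75 past the limma test without and with palmitic acid, beside 0.0171% and 0% of all genes.

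Cargo receptors, which link material to ATG8 proteins, held most of these calls, with 5 of 13 tested higher and 1 lower without FABP4 and 5 higher and 0 lower with it. Bnip3, a receptor on mitochondria, had levels of 3.63, 3.66 and 3.91 in controls, 3.90, 3.69 and 4.04 with FABP4, 4.96, 4.70 and 4.95 with palmitic acid, and 4.86, 4.65 and 4.78 with both. Every array with palmitic acid was above every array without it. Bnip3 rose by 1.14 ± 0.11 (2.2-fold, adjusted p = 0.000671 by limma) without FABP4 and by 0.89 ± 0.11 (1.85-fold, adjusted p = 0.00303) with it. Its other probes gave 1.06 and 1.02 without FABP4.

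Bnip3l, the related receptor NIX, rose by 0.39 ± 0.06 and 0.42 ± 0.06 (adjusted p = 0.00661 and 0.00658 by limma). Among its other probes, A_55_P1961461 was not called without FABP4 (0.24, adjusted p = 0.0642 by limma). A_55_P2046943 was not called with it (0.31, adjusted p = 0.0791), and the remaining values of its other probes were called. Sqstm1, the ubiquitin-binding receptor p62, rose by 0.31 ± 0.06 and 0.28 ± 0.06 (0.0114 and 0.029). Nbr1, a receptor of the same kind, rose by 0.32 ± 0.08 and 0.35 ± 0.08 (0.031 and 0.0325), and Tollip by 0.23 ± 0.04 and 0.21 ± 0.04 (0.00766 and 0.0189). The other Tollip probes were not called, at 0.15 and 0.16 without FABP4 and 0.03 and 0.25 with it. On the probes that stand for them, these 4 genes rose both without and with FABP4. Retreg1, the endoplasmic reticulum receptor that the array lists as Fam134b, fell by 0.21 on the log2 scale without FABP4 (adjusted p = 0.0431) and had -0.15 ± 0.06 with it (adjusted p = 0.165).

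In the starting complex, Atg13, the adaptor of the Ulk1 kinase, rose while the other 3 tested genes and Ulk1 itself were not called. Its levels were 5.32, 5.30 and 5.40 in controls, 5.30, 5.20 and 5.32 with FABP4, 5.62, 5.70 and 5.75 with palmitic acid, and 5.78, 5.71 and 5.77 with both. The groups with palmitic acid lay wholly above those without. The rises were 0.35 ± 0.05 (adjusted p = 0.00564 by limma) and, with FABP4, 0.48 ± 0.05 (adjusted p = 0.00134).

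Atg16l1, the partner of the Atg12 and Atg5 conjugate, rose by 0.31 ± 0.05 without FABP4 (adjusted p = 0.00506 by limma), where Atg5 was lower, and had 0.15 ± 0.05 with it (adjusted p = 0.117). Plekhm1, an adaptor for fusion with the lysosome, rose by 0.30 ± 0.06 and 0.39 ± 0.06 (0.0114 and 0.00502). Ddit4, an inhibitor of the mTOR kinase, rose by 0.78 ± 0.14 with FABP4 (adjusted p = 0.0156) and had 0.34 ± 0.14 without it (adjusted p = 0.162). The FABP4 group of Ddit4 had a wide spread, at 4.48 ± 0.35 (SD, n = 3), against 4.89 ± 0.11 (SD, n = 3) in controls.

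Lists without a call are given by their smallest p. In the phosphatidylinositol 3-kinase complex these were Rubcn, an inhibitor of it, at -0.19 ± 0.05 without FABP4 (adjusted p = 0.0594 by limma) and Uvrag at 0.14 ± 0.06 with FABP4 (0.2). In membrane supply they were Zfyve1 at 0.20 ± 0.06 without FABP4 (0.084) and Wipi2, a relative of Wipi1, at 0.24 ± 0.07 with it (0.0725). Atg12 had 0.24 ± 0.07 with FABP4 (0.0929), and Flcn 0.24 ± 0.07 without it (0.0645). Of the 5 oxidase subunits used in LC3-associated phagocytosis 0 were called in limma, with Ncf4 at -0.14 ± 0.05 without FABP4 (0.126) and Cyba at 0.16 ± 0.05 with it (0.114).

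For FABP4 alone the smallest p of the lists belonged to Ddit4 (-0.41 ± 0.14), Rubcn (-0.16 ± 0.05), the cargo gene Wdfy3 (-0.21 ± 0.08), the tethering gene Vps16 (0.28 ± 0.11), Atg16l1 (0.11 ± 0.05), Tmem41b (0.13 ± 0.05), Rb1cc1 (-0.21 ± 0.10) and Cybb (-0.07 ± 0.05), with adjusted p of 0.585 to 0.83 by limma. On top of palmitic acid they were Ykt6 (-0.16 ± 0.06), Tmem41b (0.12 ± 0.05), Cyba (0.10 ± 0.05), Foxo3 (0.20 ± 0.10), Tax1bp1 (-0.13 ± 0.07), Rubcn (0.09 ± 0.05), Atg4d (0.10 ± 0.07) and Atg13 (0.06 ± 0.05), with adjusted p of 0.806 to 0.878. None of these passed.

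**Figure D5:**
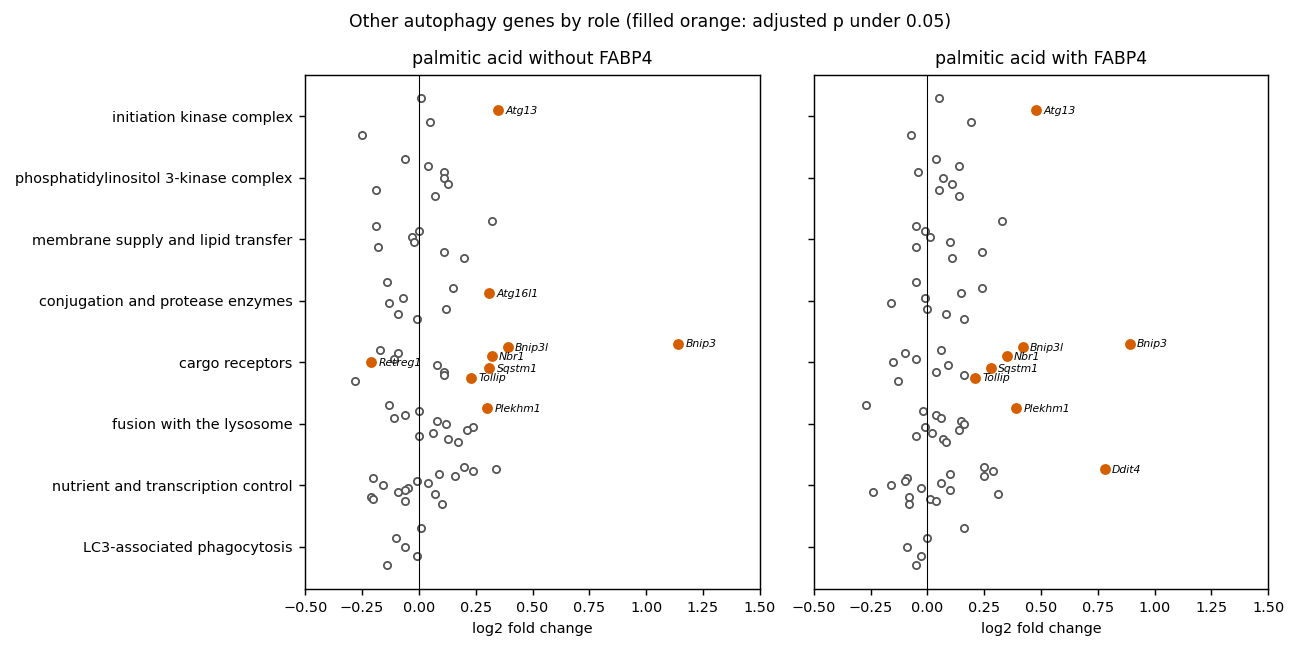
Log2 fold change of the 75 tested autophagy genes outside the core group, by role, for palmitic acid without FABP4 (left) and with FABP4 (right); each point is a gene and filled orange marks an adjusted p under 0.05. Bnip3 has the highest value in both panels, at 1.14 and 0.89, and most points lie close to 0.

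With the slide as a fixed block, 1 of the 9 calls without FABP4 held, Bnip3 at 1.17 ± 0.21 (adjusted p = 0.0478 by limma), and with it as a random block 4 held. Over all genes, 1515 calls became 138 with the fixed and 191 with the random block. Without the block the SE of Bnip3 was 0.11. The fixed block links controls and palmitic acid arrays only through the FABP4 arrays, so a slide effect and lower precision could not be told apart. With FABP4 the fixed block kept Atg13, Bnip3, Bnip3l, Plekhm1, Tollip and Ddit4, while Nbr1 and Sqstm1 had adjusted p of 0.072 and 0.0633. Leaving out single arrays ended calls of Nbr1 and Retreg1 without FABP4 and of Nbr1, Sqstm1, Tollip and Ddit4 with it, with highest adjusted p of 0.109 and 0.142, and of 0.113, 0.102, 0.0763 and 0.0596. The 9 calls without FABP4 became 14 without FABP4 array 1, and the 8 calls with FABP4 became 4 without FABP4 array 2 and 4, 5 and 4 without combined array 2, 1 and 3. Over all genes 1515 calls became 2714 in the first of these fits. In the others 670 became 298, 261, 247 and 339, in the same order.

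Markers of another cell fate moved with palmitic acid in both directions. Osteoclasts are a fate that RAW264.7 cells can take, and of 10 osteoclast markers 7 were well above background on all arrays, 8 were tested, and Calcr and Itgb3 were on none. Mmp9 was well above background on 10 of the 12, with mean signals of 48.3 in controls, 47.3 with FABP4, 38.9 with palmitic acid and 28.7 with both. The lowest signals well above background were 20.4 to 27.5 over the arrays, so Mmp9 fell towards that floor. Without FABP4, 4 of the 8 rose in limma, Dcstamp (0.73, adjusted p = 0.00022), Atp6v0d2 (0.56, 0.00506), Ocstamp (0.48, 0.0079) and Ctsk (0.31, 0.0298), and 2 fell, Nfatc1 (-0.54, 0.0248) and Mmp9 (-0.51, 0.028). Over all genes 4.88% were called higher and 3.73% lower. With single arrays left out, Ctsk, Nfatc1 and Mmp9 were each called in 7 of 12 fits, and Dcstamp, Atp6v0d2 and Ocstamp in all 12. Acp5 (0.12, 0.457) and Oscar (0.43, 0.0515) were not called. With FABP4 Dcstamp, Atp6v0d2, Ocstamp and Ctsk rose as well (0.66, 0.62, 0.47 and 0.35), Mmp9 fell (-0.64, adjusted p = 0.017) and Nfatc1 had -0.40, Acp5 0.36 and Oscar 0.14 (adjusted p = 0.109, 0.0665 and 0.522 by limma). Over all genes 2.86% were then called higher and 0.943% lower. With single arrays left out, Ctsk was called in 6 of 12 fits, Mmp9 in 9, Ocstamp in 10, and Dcstamp and Atp6v0d2 in all 12. The summed signal of the list, unscaled and carried mainly by Dcstamp and Ctsk, was 5550 to 5770 in controls, 6260 to 6640 with FABP4, 7830 to 9290 with palmitic acid and 7660 to 8820 with both.

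Of 5 T cell markers Cd3e and Lck were above background on all arrays and Cd3d, Cd3g and Cd2 were on none. On scaled levels Lck had 0.17 without FABP4 (adjusted p = 0.103 by limma) and 0.25 with it (0.0477), and Cd3e 0.06 and 0.31 (0.873 and 0.344). Their unscaled sum was 4310 to 4420 in controls, 4500 to 4980 with FABP4, 5000 to 6130 with palmitic acid and 4910 to 5550 with both. The unscaled macrophage sum was 250000 to 271000 with FABP4, 250000 to 300000 with palmitic acid and 256000 to 267000 with both, and the palmitic acid arrays 1 and 2 were the brightest as a whole, with 75th percentiles of 315.3 and 302.3 against 250.1 to 263 in controls. The part of these markers in the Atg5, Gabarap and cargo receptor results was not tested. Of 6 adipocyte markers 1 (Lipe) and of 6 fibroblast markers 1 (Col1a2) were above background on all arrays, and Dcn and Col3a1 were each on 1.

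The starts of the core genes were searched for motifs of factors known to control autophagy genes, in RefSeq promoters of GRCm38.p6 from 250 bases before to 50 after the start, on both strands. Of the 10 core genes 8 had a promoter entry. The E-box core CACGTG, which TFEB and related factors bind, was in 2 of the 8, Atg5 at 14 bases and Atg7 at 132 bases before the start, and in 8.09% of 27025 genes. It was also in 10 of 70 matched genes of the other lists (14.3%). The stretches around both are shown with the motif in capitals.
Atg5, chr10:44268313-44268342, plus strand: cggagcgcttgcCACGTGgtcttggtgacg
Atg7, chr6:114670952-114670981, plus strand: catattggtggtCACGTGtgcagtaagtga
Of these genes Atg5 was called and Atg7 was not. The longer form GTCACGTG was in 1 of the 8, Atg7, in 8 of the 70 (11.4%) and in 2.55% of genes. The CLEAR palindrome, which contains the E-box core, was in 0 of the 8, in 2 of the 70 (2.86%) and in 0.37% of genes. The composite TGATGNAAT, bound by C/EBP and ATF factors, was in 0 of 8, 0 of 70 and 1.08% of genes. The forkhead motif GTAAACA was in 0 of 8, 1 of 70 (1.43%) and 4.05%. A match describes letters in a window, not a bound site.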

How the data were processed

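Total RNA (50 ng per array) was labelled with Cy3 and read on 12 one-colour Agilent arrays, per the labels' protocols. Per the file headers, Feature Extraction 10.7.3.1 made the deposited processed signal, a background-subtracted intensity on a linear scale, with probe positions in mm9. The authors' deposited value table of 62973 rows matched these intensity values within 0.005. The log2 of the deposited intensity, minus each array's 75th percentile over non-control spots, was computed here. Outlier spots were left out and spots of a probe averaged. A gene was represented by its brightest probe among those well above background on every array of 1 or more groups. Groups were fitted with limma 3.58.1 in R 4.3.3 (lmFit, eBayes, two-sided, all 12 arrays), with Benjamini-Hochberg adjustment over 17595 genes. For the members' other probes, the fit ran over 23909 probes. The script was tested on simulated data. In all, 27 alternatives were run. Named genes are all members, pathway genes called in any palmitic acid or FABP4 comparison, and the smallest p of a list without a call. The members and lists were chosen with earlier results of these data known. Precision is limited by 3 arrays per group. Names follow the array annotation. Figures were drawn with matplotlib 3.10.9.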

Additional observations from a re-analysis of the deposited data

How the results depend on the processing

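Over 27 alternatives, the 1413 values of single core genes gave 13 lost calls, each of Atg5 for palmitic acid without FABP4, 6 new calls, and 0 called values with a turned sign. Of the uncalled values 91 changed sign. Without FABP4 the count of 1 core gene called for palmitic acid became 0 with no filter on dim probes, with the slide as a fixed or random block, with the replicate block and with only the groups compared, 2 with the mean of a gene's probes (Gabarap joined, 0.21, adjusted p = 0.034, a mean that includes the probe before the RefSeq start), and 0 to 1 with single arrays left out. With no scaling between arrays, Gabarap was called in place of Atg5 (0.2636, adjusted p = 0.0496). With FABP4 the count of 0 became 1 with normexp background correction (Gabarap, adjusted p = 0.0457), 1 with only probes above background on all 12 arrays (Gabarapl2, 0.0479) and 2 with trended and robust moderation (Gabarap 0.0185, Gabarapl2 0.0201). The causes were not tested. Counts of core genes for FABP4, for both agents against control and for the interaction were 0 under every alternative run. Replicate numbers did not pair the arrays: same-numbered arrays correlated at -0.08 to 0.17 (18 pairs) and others at -0.17 to 0.16, and the replicate block moved Atg5 to adjusted p = 0.0534.

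The pathway counts were put through the alternatives only after the data had been seen. Without FABP4, 9 called genes became 14 with quantile normalization, 17 with no scaling, 5 with no filter, 1 and 4 with the slide as a fixed and a random block, and 7 to 14 with single arrays left out. With FABP4, 8 became 2 with no scaling, 4 with no filter, 5 on slide 2 only, 2 with only the groups compared, 13 with trended moderation and 4 to 8 with single arrays left out. Over all genes, palmitic acid called 138 to 3055 without FABP4 and 94 to 1139 with it. Without FABP4, 1515 became 3055 with no scaling and 513 with no filter. It became 138 and 191 with the slide as a fixed and a random block, and 655 to 2714 with single arrays left out. With FABP4, 670 became 159 with no scaling, 185 with no filter and 260 on slide 2 only. It became 94 with only the groups compared, 1139 with trended moderation and 247 to 601 with single arrays left out. The split of higher to lower calls was 858 to 657 without FABP4 and 2945 to 110 with no scaling. With FABP4 it was 504 to 166, 381 to 329 with quantile normalization, 421 to 408 with the percentile over detected probes and 67 to 92 with no scaling.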
